A study of Homo sapiens with 16 samples.

Results

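TXNIP and the arrestin-domain genes ARRDC1, ARRDC2, ARRDC3 and ARRDC4 were followed in bladder cancer cells exposed to CM-1758, an inhibitor of histone deacetylases (HDACs). The genes were taken by symbol, and all 5 were found among the 35993 gene symbols of the deposited count table. RNA-seq was done in established human bladder cancer cell lines labelled as wild type (253J, J82, RT112, TCCSUP) after 48 h with CM-1758 at the IC50 of each cell line or without it. The labels give the control cells as vehicle control with 0.01% DMSO, whereas the paper calls the RNA-seq controls untreated. The dose was set for each cell line, so dose and cell line cannot be told apart, nor can medium and cell line for TCCSUP, which was grown in EMEM while the other 3 shared DMEM. Each of the 8 groups held 2 libraries, 16 in all. The libraries of a group are described as independent experiments in the paper and are not described further in the labels.

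These proteins are α-arrestins, which share the arrestin fold and carry PPxY motifs through which they bring NEDD4-family ubiquitin ligases to membrane proteins. TXNIP binds reduced thioredoxin and restrains glucose uptake, and its gene is known to be induced by glucose through MondoA (MLXIP) or ChREBP (MLXIPL) with their partner MLX, as well as by HDAC inhibitors. ARRDC4 is its closest relative and another target of the Mondo factors. ARRDC3 is an adaptor for the degradation of membrane proteins such as integrin β4 (ITGB4), whereas ARRDC1 recruits TSG101 to the plasma membrane and drives the budding of small vesicles. The role of ARRDC2 is less well described.

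The promoters of TXNIP and ARRDC4 are shown because Mondo factors bind pairs of E-box-like letters in such promoters. They are the 250 bases before the RefSeq transcription start in GRCh38.p14, at chr1:145996580-145996829 on the minus strand for TXNIP and at chr15:97960453-97960702 on the plus strand for ARRDC4, written 5′ to 3′ in the direction of the gene. Capitals mark CACGNG and CCAAT on either strand, where CCAAT on the opposite strand reads ATTGG.
TXNIP: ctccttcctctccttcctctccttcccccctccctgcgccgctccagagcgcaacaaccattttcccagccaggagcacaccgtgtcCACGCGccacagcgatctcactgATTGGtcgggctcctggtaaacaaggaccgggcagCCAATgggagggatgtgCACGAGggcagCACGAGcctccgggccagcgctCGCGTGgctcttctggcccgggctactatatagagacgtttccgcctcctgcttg
ARRDC4: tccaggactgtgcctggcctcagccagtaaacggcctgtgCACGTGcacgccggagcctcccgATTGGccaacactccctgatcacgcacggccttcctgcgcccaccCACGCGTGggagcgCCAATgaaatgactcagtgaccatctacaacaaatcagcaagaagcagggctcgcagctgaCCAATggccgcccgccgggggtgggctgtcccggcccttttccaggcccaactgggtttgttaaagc
TXNIP held 4 matches to CACGNG, of which CACGAG at 88 to 83 and at 77 to 72 bases before the start stood 5 bases apart. This spacing (CACGNGNNNNNCACGNG) was found in 20 of 35116 RefSeq windows of 300 bases, or 0.057%, and in none of the other 7 windows of the 5 genes. Only pairs in the same orientation, as in TXNIP, were searched. ARRDC4 also held 3 matches to CACGNG, with CACGTG at 210 to 205 bases before the start and an overlapping pair on opposite strands at 142 to 135 bases. CACGNG alone was present in 30.5% of the windows and CCAAT, the letters bound by the NF-Y complex, in 34.6%. CCAAT occurred 2 times in TXNIP and 3 times in ARRDC4. GTAAACA, a forkhead motif present in 3.42% of the windows, was found at 124 to 118 bases before the TXNIP start and in the second window of ARRDC3. ARRDC1 had no CACGNG but 10 matches to GGGCGG, a motif of SP1 found in 45% of the windows, and 1 CCAAT. ARRDC2 held 3 CACGNG and 6 GGGCGG in its first window, and in its second window 1 CCAAT and 1 TATAAA, which 11.5% of the windows hold. Letters of this kind describe the sequence only and are not evidence of binding.

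Libraries had total counts of 22506431 to 32537104. Levels are given as CPM, counts scaled by the TMM-normalized library size, and per kilobase of exon where genes are compared with each other. The 2 libraries of a group differed most in J82, with a chi-square per degree of freedom over genes of 73.1 in control and 49.2 with CM-1758, against 11.7 to 21.8 in the other 6 groups. The tests below use 1 estimate of spread over all cell lines. Fitting each cell line alone also changed the filter on low counts, so fewer genes than the 21297 of the joint fit were tested. J82 then had 6104 calls among 16756 genes (36.4%), against 9044 (42.5%) in the joint fit. Calls for 253J were 11044 of 17258 genes (64%) against 10915 (51.3%). For RT112 they were 10808 of 17555 (61.6%) against 10150 (47.7%), and for TCCSUP 12355 of 18376 (67.2%) against 11518 (54.1%). All are calls in either direction at an edgeR adjusted p under 0.05. The filter and the estimate of spread changed together, and the part of each in these differences was not tested. As the samples are bulk RNA, fewer expressing cells and less RNA per cell cannot be told apart.

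Epithelial markers were uneven between the cell lines. KRT18 had 2330, 1850, 855 and 969 CPM in control cells of 253J, J82, RT112 and TCCSUP, whereas KRT7 had 4.94 CPM in 253J and 5.95 CPM in TCCSUP against 1710 in J82 and 1850 in RT112, and EPCAM was at 0.467 CPM in 253J and 1.24 CPM in J82. Over all tested genes, 28.8% were higher and 22.4% lower with CM-1758 in 253J, 24% and 18.5% in J82, 27.4% and 20.2% in RT112, and 32% and 22.1% in TCCSUP (edgeR adjusted p under 0.05). Of 6 epithelial markers, 1 was higher and 3 lower with CM-1758 in 253J, 3 and 1 in J82, 1 and 1 in RT112, and 1 and 3 in TCCSUP. The count of higher markers was 1 in J82 without J82 control replicate 1, and 0 in TCCSUP without any TCCSUP library, either 253J control or either RT112 control library, as KRT19 lost its call. Their sum went from 3180 to 4330 CPM in 253J control libraries to 1850 to 2340 CPM with CM-1758, and from 1230 to 1360 CPM to 369 to 467 CPM in TCCSUP. It was 5940 to 8070 CPM in control against 6930 to 7860 CPM with CM-1758 in J82, and 6250 to 6400 against 5390 to 6250 CPM in RT112. KRT18 fell in TCCSUP to 163 CPM (log2 fold change -2.57, edgeR adjusted p = 7.95e-07) and in 253J to 766 CPM (-1.60, adjusted p = 4.51e-05). CDH1, which encodes E-cadherin, fell in 253J (181 to 26.1 CPM) and rose in J82 (3.82 to 26.1 CPM) and RT112 (467 to 874 CPM). KRT7 fell in J82 (-1.82) and RT112 (-0.91), where the call was lost when any RT112, TCCSUP or 253J control library, or a CM-1758 library of RT112 or TCCSUP, was left out (adjusted p = 0.0556 to 0.184).

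Urothelial identity was uneven as well. The summed level of 6 urothelial markers was 1540 to 1780 CPM in RT112 control libraries, mostly from UPK1B, against 6.05 to 7.13 CPM in 253J, 26.2 to 32.4 CPM in J82 and 92.2 to 101 CPM in TCCSUP. UPK1B, UPK2 and UPK3A had no count in any 253J library, and UPK2 and UPK3A had none in J82. In RT112 the urothelial sum was 572 to 583 CPM with CM-1758, and UPK1A fell there from 5.04 to 0.251 CPM (edgeR adjusted p = 0.000317). Of the 6, 1 was higher and 0 lower in 253J and in J82, 0 and 2 in RT112, and 2 and 1 in TCCSUP, few genes to set against the shares over all genes just given. The higher markers UPK1A in 253J, UPK1B in J82 and UPK3A in TCCSUP had 0 control reads. Their treated means were only 0.558, 0.376 and 0.382 CPM, at least 4.99-fold, 3.37-fold and 3.27-fold. Single libraries decided several of these calls. The higher marker in J82, UPK1B, lost its call without J82 CM-1758 replicate 3 (adjusted p = 0.0894), and 2 were higher without control replicate 1. In TCCSUP the count of higher markers was 1 without control replicate 1 and 0 without any of the other 3 TCCSUP libraries, and that of lower markers was 0 without control replicate 1 or CM-1758 replicate 2. The part of the epithelial and urothelial markers in the changes of the 5 genes was not tested. Markers of leukocytes, endothelium and erythroid cells summed to at most 11 CPM in any library, with PTPRC in TCCSUP control cells (9.58 CPM) as the most abundant. Of the 6, 3 were tested, and those that passed were PTPRC in TCCSUP, lower at 1.12 CPM with CM-1758, and in J82, higher at 0.922 CPM against 0.0925 CPM, a call lost without J82 control replicate 1 or 3 or CM-1758 replicate 3 (adjusted p = 0.0855, 0.0692 and 0.056). Leaving out single libraries gave 0 to 1 higher in 253J and RT112 and 0 to 2 in J82 and TCCSUP. CDH5, an endothelial cadherin, had the largest fitted mean change of these, with no read in 253J and J82 control libraries, but passed in no cell line with all libraries and stayed at or under 3.23 CPM in the group means. Of 7 small noncoding RNA genes, 1 was higher and 1 lower in 253J (28.8% and 22.4% of all genes), 0 and 0 in J82 (24% and 18.5%), 0 and 1 in RT112 (27.4% and 20.2%), and 2 and 0 in TCCSUP (32% and 22.1%), with the largest mean for RPPH1 and the smallest for RN7SK. These counts also moved with single libraries, to 1 to 3 higher and 0 to 1 lower in 253J, 0 to 1 lower in RT112 and 1 to 2 higher in TCCSUP. CDKN1A, which encodes p21 and commonly rises with HDAC inhibition, was higher with CM-1758 in 253J, J82 and TCCSUP, and was 62.6 against 74.8 CPM in RT112 (log2 fold change 0.26, edgeR adjusted p = 0.411). H2BC21, which encodes a histone H2B and was listed as another response marker, went the other way. It fell in J82 (155 to 47.2 CPM, log2 fold change -1.72, edgeR adjusted p = 7.21e-05), RT112 (-1.50, adjusted p = 0.000196) and TCCSUP (-1.18, adjusted p = 0.00106), and was -0.58 in 253J (adjusted p = 0.0657), where it passed without 253J CM-1758 replicate 1 or either RT112 CM-1758 library.

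CM-1758 changed these genes in different ways. ARRDC4 was higher in all 4 cell lines, TXNIP was higher in J82 and TCCSUP, ARRDC3 fell in 253J, and ARRDC2 rose in RT112. Genes were called at a Benjamini-Hochberg adjusted p under 0.05 over 21297 tested genes, from the quasi-likelihood test of edgeR. In either direction this called 51.3% of genes in 253J, 42.5% in J82, 54.1% in TCCSUP and 47.7% in RT112. Of these calls, 56.2% were higher in 253J and 59.1% in TCCSUP, or 68.5% and 73.9% with scaling by library size alone. In 253J, 1 of the 5 genes was higher and 2 lower, where 28.8% of all tested genes were higher and 22.4% lower. In J82, 2 genes were higher and 0 lower, against 24% and 18.5% of all genes. In RT112, 2 were higher and 0 lower, against 27.4% and 20.2%. In TCCSUP, 3 were higher and 0 lower, against 32% and 22.1%. Of all tested genes, 6.69% were higher in all 4 cell lines, as ARRDC4 was. The libraries of treated and control cells did not overlap for 5 of the 5 genes in 253J, where 40.9% of genes were higher and 32.1% lower without overlap. They did not overlap for 3 in J82 (background 34.8% and 27.9%), for 4 in RT112 (41.8% and 32.5%) and for 4 in TCCSUP (45.4% and 33.1%). At the stricter thresholds used in the study, a log2 fold change beyond 2 and an adjusted p under 0.01, TXNIP and ARRDC4 passed in J82 and ARRDC4 in RT112 and TCCSUP, where 8.81%, 11.4% and 14.2% of genes were higher and 1.24%, 1.39% and 3.31% lower by this rule. In 253J none of the 5 passed it, against 9.43% of genes higher and 3.5% lower.

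**Figure D1:**
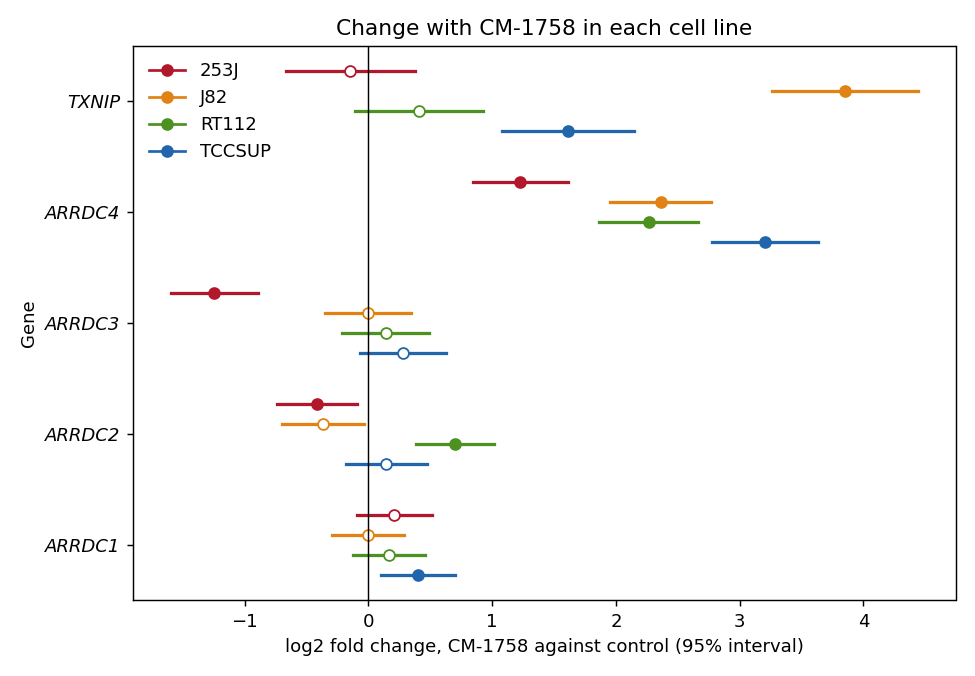
Log2 fold change of the 5 genes with CM-1758 against control (x axis) in each of the 4 cell lines, with 95% intervals from edgeR's fit; filled points passed an adjusted p of 0.05 and open points did not. ARRDC4 lies to the right of 0 in all cell lines, while TXNIP ranges from -0.15 in 253J to 3.85 in J82 and ARRDC3 is lower in 253J.

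TXNIP levels differed widely before treatment, and so did the response. In J82, where it was lowest, TXNIP had 14.3 and 12 CPM in control (377 and 330 reads) and 121 and 258 CPM with CM-1758 (3384 and 7635 reads). Both treated libraries lay far above the control libraries, although they differed from each other by more than in any other group. The fold change was 14.4 (log2 fold change 3.85, SE 0.28, edgeR adjusted p = 1.24e-07, or 0.000262 with J82 fitted alone). The log2 fold change was 3.20 without CM-1758 replicate 3 and 4.37 without CM-1758 replicate 1. In TCCSUP, TXNIP rose from 125 and 124 CPM to 414 and 348 CPM, a 3.06-fold change (log2 fold change 1.61, SE 0.25, edgeR adjusted p = 7.53e-05). RT112 had the highest control level, 359 and 298 CPM, and 416 and 456 CPM with CM-1758. The RT112 groups did not overlap, but the log2 fold change of 0.41 (SE 0.24) did not pass the test (edgeR adjusted p = 0.181). It passed when RT112 was fitted alone (log2 fold change 0.41, adjusted p = 0.0184) and when J82 CM-1758 replicate 1 or 3 was left out (adjusted p = 0.0202 and 0.0280). In 253J, TXNIP was at 90.1 CPM in both control libraries and at 79.8 and 83.0 CPM with CM-1758. This log2 fold change of -0.15 (SE 0.24, 95% interval -0.67 to 0.38, edgeR adjusted p = 0.669) did not pass, and turned to 0.13 with scaling by library size alone (adjusted p = 0.71). The TXNIP effect differed between the cell lines (interaction F test, edgeR adjusted p = 2.46e-06), which 51.9% of tested genes did. Of the 6 pairs of cell lines, 5 differed in the TXNIP effect, where 30% of genes did so for 253J against J82, 30% against RT112 and 28.6% against TCCSUP, 22.2% for J82 against RT112, 22.2% against TCCSUP, and 27.5% for RT112 against TCCSUP. The exception was 253J against RT112 (difference of log2 fold changes -0.55, SE 0.34, adjusted p = 0.26). The effect in J82 exceeded that in TCCSUP by 2.24 on the log2 scale (SE 0.35, edgeR adjusted p = 0.000362), or by 1.59 without J82 CM-1758 replicate 3. The difference between RT112 and TCCSUP lost its call without RT112 control or CM-1758 replicate 1 (edgeR adjusted p = 0.0686 and 0.0595), TCCSUP control replicate 2 (0.0524) or TCCSUP CM-1758 replicate 1 (0.0698).

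Among the control cells the order of TXNIP was RT112 with 329 ± 42.7 CPM, TCCSUP with 125 ± 0.891 CPM, 253J with 90.1 ± 0.054 CPM and J82 with 13.2 ± 1.64 CPM (SD, n = 2 in each), a 24.9-fold range. The libraries of TCCSUP lay above those of 253J, but this difference did not pass (edgeR adjusted p = 0.123), and those of the other neighbours did. Of all genes, control levels differed for 53.1% between 253J and J82, 54.3% between 253J and RT112, 53.1% between 253J and TCCSUP, 52.1% between J82 and RT112, 48% between J82 and TCCSUP, and 51.5% between RT112 and TCCSUP. With CM-1758 the range narrowed to 5.36-fold, with 436 ± 28.4 CPM in RT112, 381 ± 47.1 CPM in TCCSUP, 190 ± 97.1 CPM in J82 and 81.4 ± 2.24 CPM in 253J (SD, n = 2). The corresponding shares of genes for the treated cells were 54.3%, 58%, 53.9%, 54.2%, 52.3% and 51.9%. J82 passed from below 253J to above it (2.33-fold, edgeR adjusted p = 0.000705, and 1.49-fold with adjusted p = 0.0124 without J82 CM-1758 replicate 3), whereas the difference between RT112 and TCCSUP did not pass (adjusted p = 0.528, 95% interval of the log2 difference -0.32 to 0.71). Control levels of all 5 genes and treated levels of all 5 differed between cell lines by F test, as did 78.8% and 83.7% of tested genes. Per kilobase of exon, TXNIP exceeded 99.5% of 30522 genes in treated RT112 and in treated TCCSUP, and 73.1% in J82 control cells.

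**Figure D2:**
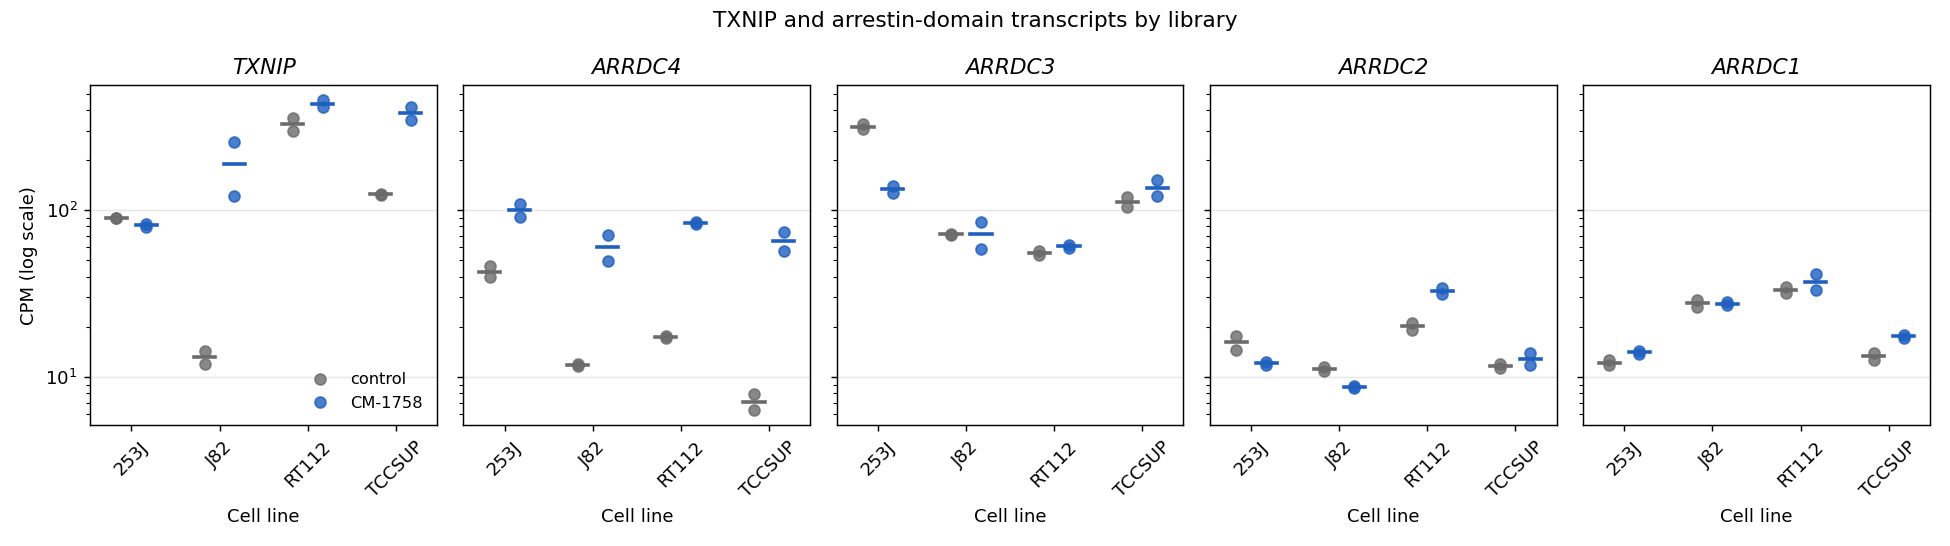
CPM of TXNIP, ARRDC4, ARRDC3, ARRDC2 and ARRDC1 (log scale) in each of the 16 libraries by cell line; grey points are control and blue points CM-1758 libraries, and bars are means of 2. ARRDC4 is higher with CM-1758 in every cell line, TXNIP starts at 13.2 CPM in J82 and at 329 CPM in RT112, and ARRDC3 falls in 253J from 317 to 134 CPM.

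ARRDC4, the α-arrestin closest to TXNIP, rose in every cell line. It had 46.1 and 39.6 CPM in 253J control libraries and 109 and 91.4 CPM with CM-1758, a 2.34-fold change (log2 fold change 1.23, SE 0.18, edgeR adjusted p = 4.33e-05). J82 went from 12 and 11.6 CPM to 49.9 and 71.1 CPM (5.14-fold, log2 fold change 2.36, SE 0.19, edgeR adjusted p = 3.21e-07). RT112 libraries held 17.6 and 17.2 CPM in control and 82.8 and 84.5 CPM with CM-1758 (4.81-fold, log2 fold change 2.27, SE 0.19, edgeR adjusted p = 3.19e-07). The largest rise was in TCCSUP, which had the lowest control level, from 7.88 and 6.36 CPM to 74.4 and 57.0 CPM (9.24-fold, log2 fold change 3.21, SE 0.20, edgeR adjusted p = 1.8e-08). In no cell line did treated and control libraries overlap. The ARRDC4 effect differed between cell lines (interaction, edgeR adjusted p = 0.000171). It was smaller in 253J than in each of the other 3, by 1.14 against J82, 1.04 against RT112 and 1.98 against TCCSUP on the log2 scale (edgeR adjusted p = 0.00352, 0.00604 and 5.32e-05). The effects in J82 and RT112 were not shown to differ (difference 0.10, 95% interval -0.45 to 0.65, edgeR adjusted p = 0.925). The effect in TCCSUP exceeded those in J82 and RT112 by 0.84 and 0.94 (edgeR adjusted p = 0.0327 and 0.0143), but both calls were lost without TCCSUP control replicate 2 (0.151 and 0.0823) or TCCSUP CM-1758 replicate 1 (0.156 and 0.0824), and the first also without J82 control replicate 1 or 3 (0.0665 and 0.0529) or J82 CM-1758 replicate 1 (0.198). Control levels ran from 42.8 ± 4.59 CPM in 253J through 17.4 ± 0.265 CPM in RT112 and 11.8 ± 0.287 CPM in J82 to 7.12 ± 1.07 CPM in TCCSUP, a 6.01-fold range in which all neighbours differed. The difference between RT112 and J82 was lost without any 1 of their 4 control libraries (edgeR adjusted p = 0.0533 to 0.0789), and that between J82 and TCCSUP without TCCSUP control replicate 2 (0.0799). With CM-1758 the range was 1.65-fold, from 100 ± 12.6 CPM in 253J, 83.7 ± 1.18 CPM in RT112 and 65.7 ± 12.3 CPM in TCCSUP to 60.5 ± 15 CPM in J82 (SD, n = 2), and no difference between neighbours in this order passed. Of the other 3 pairs, 253J differed from J82 (edgeR adjusted p = 0.00287) and from TCCSUP (adjusted p = 0.00933), and RT112 from J82 (adjusted p = 0.0366). The second was lost without 253J CM-1758 replicate 1 (0.0868) or TCCSUP CM-1758 replicate 2 (0.125), and the third without J82 CM-1758 replicate 1 (0.332) or any RT112 library (0.0517 to 0.124). Averaged over the 4 cell lines with equal weight, ARRDC4 rose by a log2 fold change of 2.27 (SE 0.09, edgeR adjusted p = 7.19e-11) and TXNIP by 1.43 (SE 0.12, edgeR adjusted p = 9.35e-08), a test that called 36.9% of genes higher and 25% lower.

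The balance between TXNIP and ARRDC4 shifted toward ARRDC4 in 3 cell lines and toward TXNIP in J82. Per kilobase of exon, TXNIP was 22.9 and 19.5 times the level of ARRDC4 in RT112 control libraries and 5.64 and 6.06 times with CM-1758. TCCSUP went from 17.9 and 21.9 to 6.26 and 6.85 times. In 253J the ratio fell from 2.20 and 2.56 to 0.821 and 1.02, so that ARRDC4 reached the level of TXNIP. In J82 the ratio was higher with CM-1758, at 2.72 and 4.08 against 1.34 and 1.17. These ratios are given as a description, without a test.

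**Figure D3:**
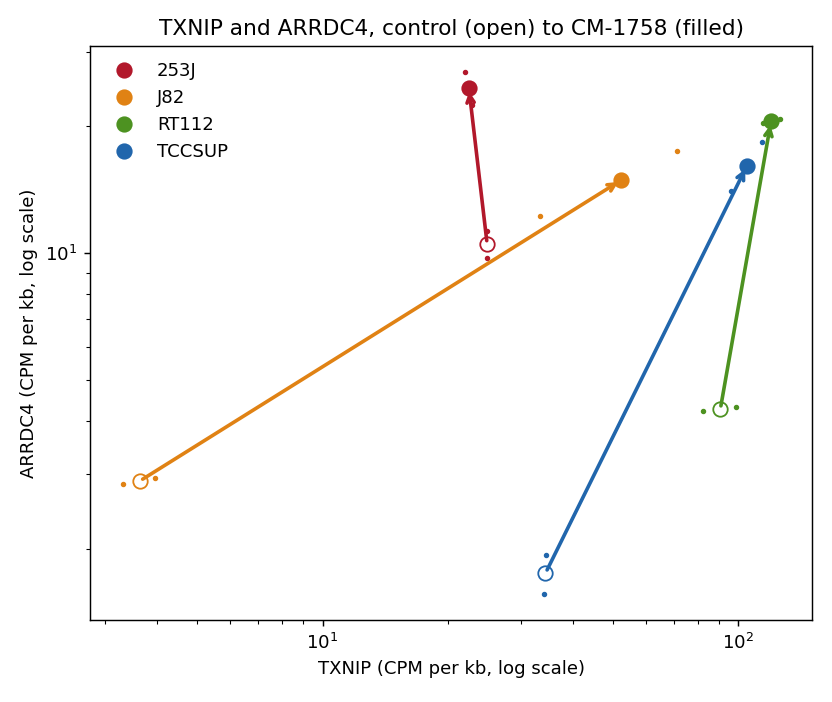
TXNIP (x axis) against ARRDC4 (y axis), both in CPM per kilobase of exon on log scales; open circles are control means, filled circles CM-1758 means, small dots single libraries, and arrows join the 2 means of a cell line. ARRDC4 goes up in all 4, while TXNIP moves far to the right in J82 and slightly to the left in 253J.

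ARRDC3 went down in 253J, the cell line in which it was most abundant. Control libraries of 253J held 305 and 329 CPM and treated libraries 127 and 140 CPM, which do not overlap, a fall to 0.421 of control (log2 fold change -1.25, SE 0.16, edgeR adjusted p = 1.64e-05). J82 had 71.5 and 72.1 CPM in control and 58.6 and 84.6 CPM with CM-1758, on either side of the control values (log2 fold change -0.00, 95% interval -0.35 to 0.35, edgeR adjusted p = 1). In RT112, 56.7 and 53.6 CPM in control stood against 59.4 and 61.9 CPM (log2 fold change 0.14, edgeR adjusted p = 0.523). TCCSUP showed 120 and 105 CPM in control and 151 and 122 CPM with CM-1758 (log2 fold change 0.28, SE 0.16, edgeR adjusted p = 0.162), which passed with scaling by library size alone (0.59, adjusted p = 0.00514). The ARRDC3 effect differed between cell lines (interaction, edgeR adjusted p = 0.000221), and of the 6 pairs only the 3 with 253J passed, by 1.24 to 1.53 on the log2 scale. The control order was 253J with 317 ± 16.5, TCCSUP with 112 ± 10.5, J82 with 71.8 ± 0.394 and RT112 with 55.1 ± 2.18 CPM (SD, n = 2), where the difference between TCCSUP and J82 was lost without TCCSUP control replicate 1 (adjusted p = 0.0501) and that between J82 and RT112 missed the threshold after adjustment (log2 difference 0.38, 95% interval 0.03 to 0.73, edgeR adjusted p = 0.0648). With CM-1758, 253J and TCCSUP had 134 ± 8.68 and 137 ± 20.4 CPM (SD, n = 2), and their difference did not pass (95% interval of the log2 difference -0.38 to 0.32, edgeR adjusted p = 0.888). The mean effect over the 4 cell lines, -0.21 (SE 0.08, edgeR adjusted p = 0.0376), lost its call with DESeq2 (-0.14, adjusted p = 0.121) and turned to 0.0098 with library size alone. Without J82 CM-1758 replicate 1 it was -0.12 (adjusted p = 0.161), and 8 other single libraries also decided the call.

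Exons of ARRDC3 overlap the antisense gene ARRDC3-AS1 in the GENCODE 29 annotation. The libraries were made with a stranded kit, but no source used here states whether reads were counted by strand, and without that reads of the pair cannot be told apart in the shared exons. ARRDC3-AS1 was scarce. It went from 1.40 ± 0.0819 to 2.96 ± 0.258 CPM in 253J (SD, n = 2, log2 fold change 1.08, edgeR adjusted p = 0.00308), while ARRDC3 fell there. It was also higher in RT112 (1.01, adjusted p = 0.00496) and TCCSUP (1.02, adjusted p = 0.00253) and missed the threshold in J82 (0.56, edgeR adjusted p = 0.102). ARRDC1 likewise shares exons with ARRDC1-AS1 on the opposite strand and with AL590627.2 on its own strand, and ARRDC2 with AC020904.3 on the opposite strand. ARRDC1-AS1 fell in J82 (log2 fold change -0.51, edgeR adjusted p = 0.01) and RT112 (-0.70, adjusted p = 0.00168), where ARRDC1 had log2 fold changes of -0.01 and 0.16. No exon of TXNIP or ARRDC4 overlapped another gene.

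ARRDC2 was among the less abundant of the 5 and rose in RT112, from 21.2 and 19.2 CPM to 34.2 and 31.3 CPM (1.62-fold, log2 fold change 0.70, SE 0.15, edgeR adjusted p = 0.00127). In 253J it had 14.6 and 17.7 CPM in control and 12.3 and 11.8 CPM with CM-1758. This fall (log2 fold change -0.42, SE 0.15, edgeR adjusted p = 0.0313) lost its call with RLE normalization (-0.37, adjusted p = 0.0515), with library size alone (-0.15, adjusted p = 0.454) and without 253J control replicate 3 (-0.28, adjusted p = 0.247), CM-1758 replicate 1 (-0.45, adjusted p = 0.0781) or CM-1758 replicate 3 (-0.39, adjusted p = 0.126). J82 libraries held 11.5 and 10.8 CPM in control and 8.77 and 8.53 CPM with CM-1758 (log2 fold change -0.37, edgeR adjusted p = 0.0676). TCCSUP had 11.3 and 11.9 CPM against 11.8 and 13.9 CPM (log2 fold change 0.14, edgeR adjusted p = 0.448). The effect differed between cell lines (interaction, edgeR adjusted p = 0.00126), and the pairs that passed were RT112 against 253J and against J82, by 1.11 and 1.07 on the log2 scale. RT112 was the highest of the treated cell lines with 32.8 ± 2.1 CPM, followed by TCCSUP with 12.9 ± 1.46, 253J with 12.1 ± 0.336 and J82 with 8.65 ± 0.17 CPM (SD, n = 2). The difference between TCCSUP and 253J did not pass (edgeR adjusted p = 0.646).

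ARRDC1 changed little. It had 12.6 and 11.7 CPM in 253J control libraries and 14.3 and 13.8 CPM with CM-1758 (log2 fold change 0.21, edgeR adjusted p = 0.243). J82 had 29.1 and 26.2 CPM against 27.1 and 28.0 CPM, with overlap, and RT112 34.5 and 32.1 CPM against 41.2 and 33.4 CPM, also with overlap. The median log2 fold change of all tested genes in TCCSUP was 0.20, and that of ARRDC1 lay above 56.1% of genes. A rise of ARRDC1 was called there, from 13.9 and 12.6 CPM to 17.2 and 17.9 CPM (log2 fold change 0.40, SE 0.14, edgeR adjusted p = 0.0261). It was lost when any TCCSUP library was left out, with log2 fold changes of 0.47 and 0.33 without control replicate 1 and 2 and of 0.42 and 0.37 without CM-1758 replicate 1 and 2 (adjusted p = 0.0566, 0.17, 0.0715 and 0.109). The effect was not shown to differ between cell lines (interaction, edgeR adjusted p = 0.347). The mean over the 4 cell lines was 0.19 (SE 0.07, edgeR adjusted p = 0.0254) and missed the threshold when any of 8 single libraries was left out. Control levels were 33.3 ± 1.72 CPM in RT112 and 27.7 ± 2.02 CPM in J82, above 13.3 ± 0.915 CPM in TCCSUP and 12.2 ± 0.648 CPM in 253J (SD, n = 2). The difference did not pass between RT112 and J82 (edgeR adjusted p = 0.118) or between TCCSUP and 253J (adjusted p = 0.503). ARRDC5, the remaining α-arrestin gene of this name, had no count in 15 libraries and 2 reads in TCCSUP CM-1758 replicate 2, and was not tested.

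Summed per kilobase of exon, the 5 genes gave 31.5 and 30.0 CPM per kb in J82 control libraries and 66.6 and 115 with CM-1758. The sum also rose in TCCSUP, from 66.9 and 62.9 to 170 and 142, and in RT112, from 128 and 110 to 165 and 175, but was lower with CM-1758 in 253J, at 81.1 and 79.8 against 105 and 108. In J82 the leading gene changed with treatment. ARRDC3 made up 46.0% and 48.8% of the J82 control sum and TXNIP 12.5% and 11%, whereas TXNIP made up 50.2% and 62.0% with CM-1758. In 253J control cells ARRDC3 made up 59.2% and 61.7%, and with CM-1758 ARRDC3 (31.9% and 35.5%), ARRDC4 (33.1% and 28.1%) and TXNIP (27.2% and 28.7%) were close to each other. TXNIP led in RT112 and TCCSUP in both conditions, with 51.7% to 77.1% of the sum. These shares are descriptive and depend on the exon lengths of the annotation.

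**Figure D4:**
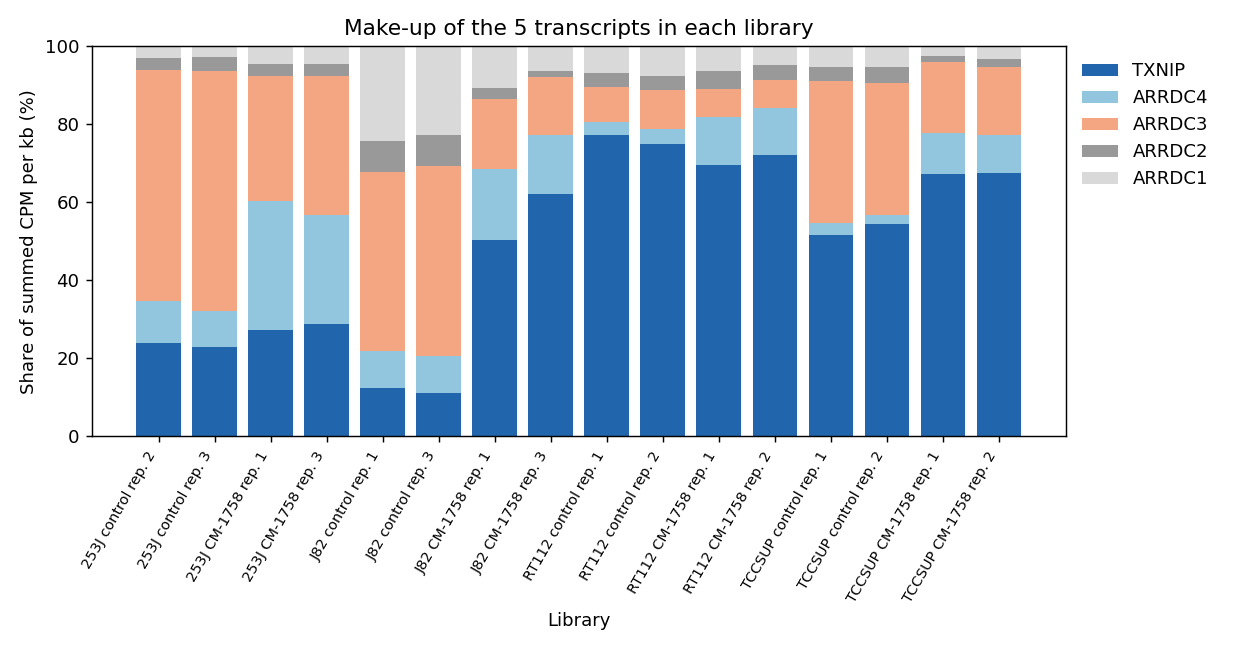
Share of each of the 5 genes (%) in their summed CPM per kilobase of exon, in each of the 16 libraries. TXNIP is the widest band in RT112 and TCCSUP and in CM-1758-treated J82, and ARRDC3 in the control libraries of 253J and J82.

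Of 14205 tested genes with a mean log2 CPM above 0, the 5 whose level followed TXNIP most closely over the 16 libraries were CDK18 (Pearson's r = 0.956), HIP1R (0.942), KDM5B (0.94), RASSF10 (0.928) and TFEB (0.926). The libraries share 4 cell lines, and these r values are a description. KDM5B encodes a histone demethylase and TFEB a transcription factor of lysosomal genes. Their log2 fold changes in J82, where TXNIP itself changed most, ran from 1.70 for KDM5B to 3.35 for TFEB, which the choice by likeness to TXNIP favours. HIP1R was the one called higher in all 4 cell lines, at 12.7 against 107 CPM in J82 and 57.8 against 207 CPM in TCCSUP, but its call was lost in 253J without control replicate 2 or CM-1758 replicate 1 (adjusted p = 0.0952 and 0.0727) and in RT112 without control or CM-1758 replicate 1 (0.0873 and 0.135). The other arrestin-domain genes were far from TXNIP by this measure, with r = 0.486 for ARRDC2, 0.416 for ARRDC4, 0.218 for ARRDC1 and -0.139 for ARRDC3. After the control mean of each cell line was subtracted, r with TXNIP was 0.665 for ARRDC4, 0.288 for ARRDC3, 0.087 for ARRDC1 and -0.256 for ARRDC2.

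The thioredoxin system, to which the partner of TXNIP belongs, held genes called in both directions. Of its 14 genes, 3 were higher and 3 lower in 253J, where 28.8% of all tested genes were higher and 22.4% lower, with a median log2 fold change of -0.19 against 0.10 over all tested genes. J82 had 3 higher and 6 lower (24% and 18.5% of all genes, median 0.08 against 0.05), RT112 4 and 5 (27.4% and 20.2%, median -0.31 against 0.12), and TCCSUP 2 and 7 (32% and 22.1%, median -0.42 against 0.20). TXN, thioredoxin itself, fell in J82 from 378 to 205 CPM (log2 fold change -0.88, edgeR adjusted p = 0.000563) and in RT112 from 205 to 116 CPM (-0.82, adjusted p = 0.000893). TXNRD1, the cytosolic reductase that recycles it, rose in 253J, J82 and RT112, most in RT112 from 146 to 481 CPM (log2 fold change 1.72, edgeR adjusted p = 9.84e-06). PRDX1, a peroxidase that uses thioredoxin, was higher in all 4, with log2 fold changes of 0.98 to 1.22. The related peroxidases PRDX2, PRDX3 and PRDX4 were each lower in 3 cell lines, as in the falls of PRDX4 in 253J (-1.75), PRDX3 in 253J (-1.11) and PRDX2 in RT112 (-1.44). MSRA, a methionine sulfoxide reductase, had the lowest mean, with falls of 3.19 in J82, 0.92 in RT112 and 2.19 in TCCSUP on the log2 scale and a rise of 1.02 in 253J. Single libraries decided some of these calls. The count of higher genes was 1 in J82 without control replicate 1 or CM-1758 replicate 3 and 1 in TCCSUP without any 1 TCCSUP library, and that of lower genes was 4 in TCCSUP without control replicate 2. PRDX1 lost its call in 253J without control replicate 3 (adjusted p = 0.0548) and in J82 without control replicate 1 or CM-1758 replicate 3 (0.0821 and 0.196), as did TXNRD1 in J82 without the same libraries (0.0645 and 0.0769). MSRA lost it in 253J without control replicate 2 or CM-1758 replicate 3 (0.108 and 0.149) and in RT112 without control replicate 1 or 2 or CM-1758 replicate 2 (0.102, 0.108 and 0.293). PRDX4 lost it in TCCSUP without control replicate 1 or 2 or CM-1758 replicate 2 (0.145, 0.053 and 0.216).

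Of 10 factors known to act on the TXNIP promoter, 3 were higher and 2 lower in 253J (28.8% and 22.4% of all genes), with a median of 0.39, or 0.22 with MLXIPL at its lower bound, against 0.10 over all genes. The counts were 3 and 4 in J82 (24% and 18.5% of all genes, median -0.18 against 0.05), 4 and 1 in RT112 (27.4% and 20.2%, median 0.33 against 0.12), and 3 and 3 in TCCSUP (32% and 22.1%, median 0.11 against 0.20). The number lower was 1 in TCCSUP without control replicate 2 or CM-1758 replicate 1, as NFYB (adjusted p = 0.0727 and 0.0725) and NFYC then lost their calls, and NFYB lost its call without either other TCCSUP library as well (0.0545 and 0.0805). It was 2 in J82 without CM-1758 replicate 3. In RT112 it was 0 without RT112 control replicate 2, and 2 without either 253J CM-1758 or either J82 control library. FOXO1, a forkhead factor, was higher in all 4 cell lines. It was 3.42 and 2.84 CPM in J82 control and 26.7 and 28.0 CPM with CM-1758 (log2 fold change 3.13, edgeR adjusted p = 7.6e-08). NFYC, a subunit of NF-Y, was lower in all 4, by 0.60 to 0.80 on the log2 scale, but lost its call in RT112 without control replicate 2 or CM-1758 replicate 1 (adjusted p = 0.101 and 0.107) and in TCCSUP without TCCSUP control replicate 2 or CM-1758 replicate 1 (0.0572 and 0.0751). MLXIPL (ChREBP) was scarce but higher in J82 (0.471 to 4.16 CPM), RT112 (1.58 to 6.05 CPM) and TCCSUP (0.253 to 4.36 CPM), and had no read in 253J except 6 in CM-1758 replicate 1. Its log2 fold change of 3.14 in J82 was 4.48 without control replicate 1 and 2.45 without control replicate 3, and the RT112 call was lost without CM-1758 replicate 2 (adjusted p = 0.0688). MLXIP (MondoA) was called higher in J82, with 8.93 and 3.96 CPM in control and 12.1 and 10.5 CPM with CM-1758 (log2 fold change 0.81, edgeR adjusted p = 0.0381). This rested on control replicate 3, without which it was 0.34 (adjusted p = 0.356), against 1.51 without control replicate 1 (0.000875), and the call was also lost without either J82 CM-1758 library (0.104 and 0.064) or either TCCSUP CM-1758 library (0.0506 and 0.0504). Elsewhere it did not pass, with -0.34 in 253J, 0.50 in RT112 and 0.38 in TCCSUP. MLX rose in 253J (0.56, edgeR adjusted p = 0.00138) and fell in J82 (-0.57, adjusted p = 0.00175). The part of these transcripts in the TXNIP change was not tested.

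Among 11 NEDD4-family ligases and adaptors, 2 were higher and 5 lower in 253J (28.8% and 22.4% of all genes, median -0.12 against 0.10). In J82 these were 4 and 1 (24% and 18.5%, median 0.24 against 0.05), in RT112 3 and 1 (27.4% and 20.2%, median 0.09 against 0.12), and in TCCSUP 2 and 4 (32% and 22.1%, median -0.30 against 0.20). In 253J the number higher was 1 without control replicate 2 or CM-1758 replicate 3, and the number lower was 3 without control replicate 3. In RT112 there was 1 higher without control replicate 1, and 0 lower without it or without CM-1758 replicate 2. In TCCSUP 2 were lower without CM-1758 replicate 2. ITCH, the ligase that targets TXNIP protein, rose in RT112 (239 to 341 CPM, log2 fold change 0.51, edgeR adjusted p = 0.00748, lost without control or CM-1758 replicate 1 at 0.0698 and 0.0989) and fell in TCCSUP (167 to 100 CPM, -0.73, adjusted p = 0.000501). NEDD4 had the lowest mean change and fell in 253J (-1.60) and TCCSUP (-0.82). HECW1 was called higher in all 4 cell lines, although in RT112 it rested on 10 reads in 1 treated library against 0 in the other 3, at least 1.91-fold on the mean. That call was lost without control replicate 1 or 2 or CM-1758 replicate 2 (adjusted p = 0.1, 0.0936 and 1), and the J82 call without control replicate 3 (0.062). In TCCSUP its log2 fold change of 2.70 was 3.58 without control replicate 2.

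Cargoes and partners of the α-arrestins showed 5 higher and 3 lower of 12 genes in 253J (28.8% and 22.4% of all genes, median 0.61 against 0.10). There were 5 and 0 in J82 (24% and 18.5%, median 0.37 against 0.05), 5 and 3 in RT112 (27.4% and 20.2%, median -0.0034 against 0.12), and 4 and 2 in TCCSUP (32% and 22.1%, median 0.057 against 0.20). The number higher was 3 in J82 without control replicate 3 and 3 in RT112 without control replicate 2 or CM-1758 replicate 1, and 1 gene was lower in J82 without J82 control replicate 1 or either 253J CM-1758 library. SLC2A1 (GLUT1), the glucose transporter that TXNIP restrains, fell in 253J from 310 to 96.9 CPM (log2 fold change -1.68, edgeR adjusted p = 2.13e-07), in RT112 from 394 to 267 CPM (-0.56, adjusted p = 0.00292) and in TCCSUP from 225 to 136 CPM (-0.73, adjusted p = 0.000335). In J82 it rose from 137 to 183 CPM (0.42, edgeR adjusted p = 0.0197), which was lost without control replicate 3 (0.30, adjusted p = 0.154). SLC2A3 (GLUT3) rose in all 4, from 51.3 to 437 CPM in J82 and from 61.3 to 343 CPM in TCCSUP, and in 253J on 6 against 26 reads, a ratio of 4.23 with a 95% counting interval of 1.70 to 12.6. The 253J call was lost without control replicate 2 or 3 or CM-1758 replicate 3 (adjusted p = 0.132, 0.113 and 0.449), and without the last the fold was 2.08. SLC2A4 (GLUT4), the insulin-responsive transporter, was higher in all 4 from control means under 1 CPM (1.58 in 253J on the log2 scale, or 2.20 without control replicate 2), and at least 68.5-fold in TCCSUP, where the control libraries had 0 reads. PRKAA2, a catalytic subunit of AMPK, which phosphorylates TXNIP, was also higher in all 4. It had 3 reads in TCCSUP control, all in replicate 2, and 790 with CM-1758, a ratio of 260 (95% counting interval 88.7 to 1260). The fitted fold change was 127 without control replicate 1, and without control replicate 2 no control read was left, so the size of this rise rests on that library.

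Of 8 other genes with the arrestin fold, 5 were tested, of which 3 were higher in each cell line and VPS26B was lower in RT112 (log2 fold change -0.45, edgeR adjusted p = 0.00546). Of all genes 28.8%, 24%, 27.4% and 32% were higher in 253J, J82, RT112 and TCCSUP. Medians of the 5 were 0.52, 0.50, 0.77 and 0.46, against 0.10, 0.05, 0.12 and 0.20 over all genes. ARRB1 (β-arrestin 1) was higher in all 4, as were 6.69% of all genes, by 0.46 to 1.15 on the log2 scale. Its calls in 253J and TCCSUP were lost without any 1 library of that cell line (adjusted p = 0.0526 to 0.0808 and 0.0651 to 0.158). Without 253J control replicate 3 or CM-1758 replicate 3, VPS26A lost its call there too (0.149 and 0.0935), which left 1 gene higher, VPS26C. ARRB2 (β-arrestin 2) had the largest mean, and rose most in RT112, from 1.43 to 8.73 CPM (log2 fold change 2.60, edgeR adjusted p = 2.21e-06). The visual arrestin genes SAG and ARR3 and ARRDC5 were too low to be tested.

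**Figure D5:**
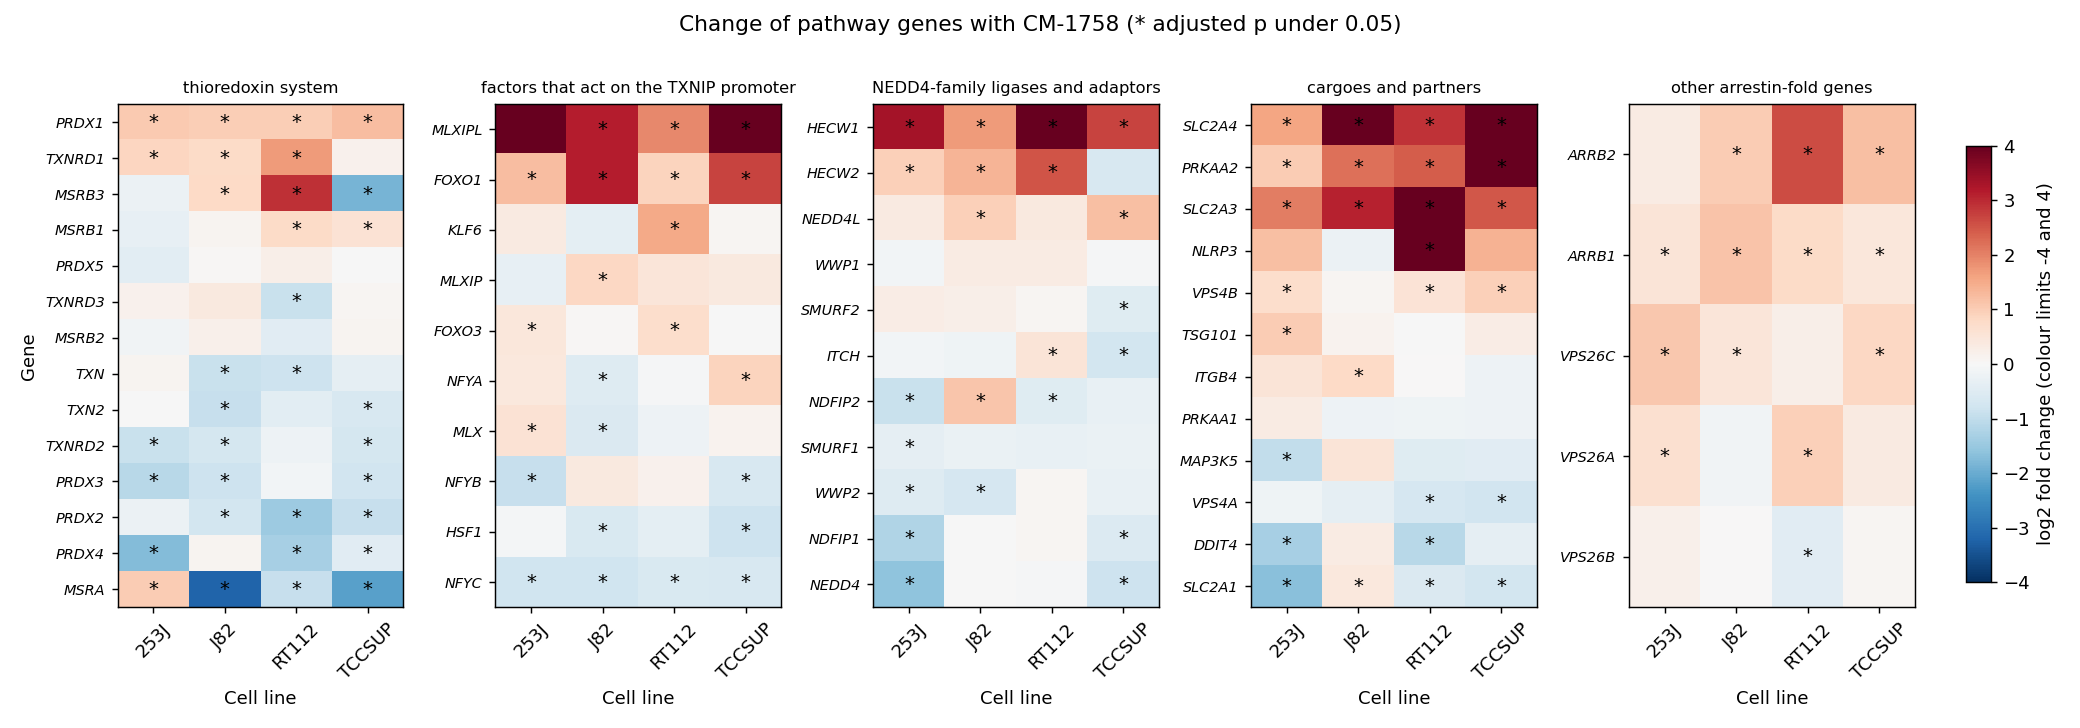
Log2 fold change with CM-1758 (color, limited to -4 and 4) of the genes of 5 lists in each cell line; asterisks mark an adjusted p under 0.05. With all libraries, PRDX1, FOXO1, HECW1, SLC2A4 and ARRB1 are higher and NFYC lower in all 4 cell lines, and SLC2A1 is lower in 3 and higher in J82.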

How the data were processed

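RNA-seq libraries were made from total RNA depleted of ribosomal RNA, with a stranded kit. The authors deposited raw counts, the whole number of reads per gene symbol, for 16 libraries, with no normalization. The submitters' processing notes name HISAT2, StringTie and GRCh37. The counting tool and its strand setting are not given in the sources used here. Columns were matched to samples by title. Low-count genes were removed by filterByExpr (8 groups), TMM factors were computed, and edgeR 4.0.16 (R 4.3.3) was run with glmQLFit and glmQLFTest on 8 group means, leaving 8 residual degrees of freedom. P-values were adjusted by Benjamini-Hochberg over all 21297 genes within a contrast, and SE was taken as |log2 fold change| over √F. Since each group had 2 libraries, dispersions were moderated over genes and groups (common biological coefficient of variation 0.153), although the J82 libraries of a group differed more than those of the other cell lines. The fit was also run on simulated counts in which 200 of 21297 genes changed 4-fold in J82 alone. It recovered 185 of them in the right direction and called 7 unchanged genes. Far fewer genes changed there than were called in the real data, so it does not test the scaling under so broad a change. Exon lengths came from GENCODE 29 and promoters from RefSeq GRCh38.p14, in which all 5 genes matched.

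Named besides the 5 genes were list genes called in 1 direction in all 4 cell lines, the largest and smallest mean of each list, a few partners fixed by name, and the 5 genes most like TXNIP. Other list genes were named outside this rule, as examples or where a single library decided a call. The genes and lists were chosen with earlier results of these data known. Some genes of these lists are not reported here and were left out of the counts and medians. Lower bounds use 3 reads per library, and counting intervals are exact at 95% and cover counting error only. Alternatives were RLE normalization, library size alone, no filter, at least 10 counts in every library, DESeq2 1.42.0, a replicate block, counts thinned to the smallest library, 7 small noncoding RNA genes left out, each cell line fitted alone, the study's thresholds and each library left out. For list genes and their counts, leaving out each library was chosen after seeing the data.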

Additional observations from a re-analysis of the deposited data

Results flagged for a closer look

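The effect of CM-1758 differed between the 4 cell lines for 4 of the 5 genes, by edgeR's interaction F test adjusted over all 21297 genes, which 51.9% of genes passed. The adjusted p was 2.46e-06 for TXNIP, whose log2 fold change ran from -0.15 in 253J to 3.85 in J82. It was 0.000171 for ARRDC4, which was higher in 4 of 4 cell lines, by 1.23 in 253J to 3.21 in TCCSUP. ARRDC3 had an adjusted p of 0.000221, with a fall of 1.25 in 253J and values of -0.00 to 0.28 elsewhere. For ARRDC2 it was 0.00126, with 0.70 in RT112 and -0.42 in 253J. The doses differed between cell lines, and their part in these differences was not tested. Outliers within a group were not looked for, as each group had 2 libraries, but the effect of each library was examined by leaving it out.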

How the results depend on the processing

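Of 1178 values recomputed under 10 alternatives and 16 fits with 1 library left out, 1099 kept their direction and side of the threshold. Under all of these except the study's thresholds, ARRDC4 kept its rise in all 4 cell lines and TXNIP in J82 and TCCSUP. So did the rise of ARRDC2 in RT112 and the fall of ARRDC3 in 253J. At the study's thresholds, TXNIP in J82 and ARRDC4 in J82, RT112 and TCCSUP still passed, and the rest did not. The number of the 5 genes higher was then 2 in J82, 0 in 253J, 1 in RT112 and 1 in TCCSUP, and the number lower in 253J was 0. Scaling by library size alone moved the median log2 fold change of all genes up, by 0.15 in J82 and in RT112, 0.27 in 253J and 0.31 in TCCSUP. With it 2 of the 5 genes were higher and 1 lower in 253J, where 36.4% of all genes were then higher and 16.8% lower, and 5 were higher in TCCSUP, where 41.8% and 14.7% were, as ARRDC1 in 253J (0.48), ARRDC2 in TCCSUP (0.46), ARRDC3 in TCCSUP (0.59) and the mean ARRDC2 effect (0.23) then passed. The ARRDC2 value in 253J was then -0.15 without a call, and signs turned for TXNIP in 253J (0.13), ARRDC1 and ARRDC3 in J82 (0.14 and 0.14) and the mean ARRDC3 effect (0.0098). RLE normalization left ARRDC2 in 253J (-0.37) and the mean ARRDC3 effect (-0.14) without a call. It left 1 gene lower in 253J, where 21.5% of all genes were then lower, and gave ARRDC1 and ARRDC3 in J82 values of 0.083 and 0.085. DESeq2 gave 0.083 and 0.085 for these, and -0.14 for the mean ARRDC3 effect. Without a filter, ARRDC2 in 253J (-0.41), ARRDC1 in TCCSUP (0.39) and the mean ARRDC1 (0.19) and ARRDC3 (-0.21) effects lost their calls. This left 1 gene lower in 253J, against 14.8% of 30895 genes. With at least 10 counts in every library, ARRDC2 in 253J (-0.34) and the mean ARRDC3 effect (-0.090) lost their calls, and ARRDC3 in TCCSUP (0.43) gained one. Of the 5 genes, 1 was then lower in 253J, against 32.4% of 11984 genes, and ARRDC1 and ARRDC3 in J82 were 0.11 and 0.11. Thinned counts gave 0.012 for ARRDC1 and 0.038 for ARRDC3 in J82 and -0.19 for the mean ARRDC3 effect. With each cell line fitted alone, TXNIP in RT112 (0.41) passed, and ARRDC1 and ARRDC3 in J82 were 0.0087 and 0.011. The cause of these changes was not tested.

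Leaving out single libraries gave ranges of -0.55 to -0.28 for ARRDC2 in 253J, 0.28 to 0.54 for TXNIP in RT112, 0.33 to 0.47 for ARRDC1 in TCCSUP, -0.078 to 0.096 for ARRDC1 and -0.29 to 0.32 for ARRDC3 in J82, and for the mean effects 0.15 to 0.23 for ARRDC1, -0.020 to 0.047 for ARRDC2 and -0.28 to -0.12 for ARRDC3. The mean ARRDC1 effect lost its call without 253J control replicate 3 or CM-1758 replicate 1, J82 control or CM-1758 replicate 3, RT112 control replicate 2 or CM-1758 replicate 1, and TCCSUP control or CM-1758 replicate 2. The mean ARRDC3 effect lost it without 253J control replicate 3 or CM-1758 replicate 1, J82 CM-1758 replicate 1, any RT112 library, and TCCSUP control replicate 1 or CM-1758 replicate 2. The number of genes lower in 253J was 1 to 2. Same-numbered libraries correlated in their deviations from the group means by 0.218 (J82), 0.0427 (RT112) and 0.0173 (TCCSUP), and 253J shared 1 number only. The labels do not say whether equal numbers mark a shared experiment, and these values do not decide it. The main fit did not pair the libraries. With the replicate block, which leaves 3 residual degrees of freedom, the mean ARRDC2 effect turned to -0.026, without a call in either fit. No call of the 5 genes in J82, RT112 or TCCSUP changed. In 253J the block compares only the control and CM-1758 libraries numbered 3, so its 253J effects rest on 1 library of each group. Values between treated groups or between control groups could not be fitted under it. Each of the 5 genes had at least 166 reads in every library, and each group held 2 libraries. The part of depth and of library number in the precision was not tested.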
